A study of Mus musculus with 20 samples.

Results

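The 32 genes described here encode the proteins by which a cell takes up glucose, breaks it down to pyruvate and lactate, and imports amino acids and iron. They were given as a list of gene symbols by function, with earlier results of these data known. Each gene was read from 1 Affymetrix probe set, the one of highest mean over the 20 arrays among those annotated to that gene alone, and all 32 were found among 18194 genes measured in this way. Testing required a log2 intensity over the median of the array on 2 or more arrays. This admitted 30 of the 32 genes and 13479 genes in all. The other two, Eno2 (neuronal enolase) and Slc16a3 (the lactate exporter MCT4), were too dim and are given as values only.

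All cells were sorted out of bone marrow, and the mice were 8 to 14 weeks old. Hematopoietic stem cells (HSC), multipotent progenitors (MPP), lymphoid-primed progenitors (LMPP), pro-B cells and CD4 T cells had 2 arrays each, and common lymphoid progenitors (CLP) and granulocyte-monocyte progenitors (GMP) had 3 each. These 7 populations were wild type on C57bl/6. Mature natural killer (NK) cells were taken instead from 129 mice, which all lacked Rag2 (Rag2--), a gene needed to rearrange antigen receptors. Of these, 2 arrays had the transcription factor gene Ets1 in its normal form (Ets1++) and 2 lacked it (Ets1--). Cell type, strain and Rag2 status therefore cannot be told apart in any comparison of NK cells with another population. Nothing in the labels ties a replicate to an animal of its own, and the p-values measure only the spread between these arrays, which may be technical. In sorted bulk RNA, fewer cells of a type and less RNA per cell cannot be told apart.

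Glucose enters through GLUT transporters and is trapped by hexokinases, phosphofructokinase then commits it to glycolysis, and the lower enzymes carry it to pyruvate. Lactate dehydrogenase converts pyruvate to lactate and back, while pyruvate dehydrogenase kinases inhibit pyruvate dehydrogenase and so restrain the oxidation of pyruvate in the mitochondrion. Most steps have several isozymes encoded by separate genes, which differ in regulation and in the tissues that use them. Quiescent stem cells are known for a reliance on glycolysis, and the hypoxia-inducible factor HIF-1 is a known activator of many of these genes.

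The promoters of both main phosphofructokinase genes and of both lactate dehydrogenase genes are printed because the balance within each pair changed across the populations. Each is the 250 bases before the annotated start, 5' to 3' on the gene's strand, from RefSeq (GRCm38.p6): Pfkl, minus strand, chr10:78009808-78010057, Pfkp, minus strand, chr13:6648772-6649021, Ldha (the upstream of its annotated starts), plus strand, chr7:46845554-46845803, and Ldhb, minus strand, chr6:142507958-142508207. Capitals mark the letters of the HIF core (ACGTG or GCGTG) and of an ETS motif (CCGGAA) on either strand, so that CACGTG is an ACGTG on both strands.
Pfkl promoter: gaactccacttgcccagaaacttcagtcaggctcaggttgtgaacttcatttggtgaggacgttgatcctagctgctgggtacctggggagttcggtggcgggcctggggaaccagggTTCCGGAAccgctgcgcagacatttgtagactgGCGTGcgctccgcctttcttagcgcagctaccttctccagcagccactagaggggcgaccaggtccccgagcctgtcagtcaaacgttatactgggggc
Pfkp promoter: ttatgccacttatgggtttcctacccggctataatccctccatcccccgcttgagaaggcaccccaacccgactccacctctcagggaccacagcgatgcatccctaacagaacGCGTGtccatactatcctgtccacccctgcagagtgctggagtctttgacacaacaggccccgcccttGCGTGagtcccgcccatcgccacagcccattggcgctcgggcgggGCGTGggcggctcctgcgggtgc
Ldha promoter: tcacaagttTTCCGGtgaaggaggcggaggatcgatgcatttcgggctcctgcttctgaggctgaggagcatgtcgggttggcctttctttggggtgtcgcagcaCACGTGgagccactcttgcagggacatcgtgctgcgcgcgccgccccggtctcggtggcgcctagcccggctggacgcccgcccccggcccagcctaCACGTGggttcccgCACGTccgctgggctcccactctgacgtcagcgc
Ldhb promoter: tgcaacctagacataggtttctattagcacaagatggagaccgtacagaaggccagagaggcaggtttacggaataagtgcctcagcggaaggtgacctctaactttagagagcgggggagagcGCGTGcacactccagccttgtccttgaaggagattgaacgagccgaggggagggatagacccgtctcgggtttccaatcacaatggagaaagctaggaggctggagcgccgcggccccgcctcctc
Pfkl held the ETS letters on both strands in an overlapping run and 1 GCGTG. Pfkp held 3 GCGTG and no ETS match. Ldha held ACGTG at 3 places, at 2 of them on both strands, and 1 ETS match, whereas Ldhb held 1 GCGTG. Promoters were matched for 29 of the 32 genes, 44 in all, of which 79.5% held at least 1 HIF core against 38.6% of all 32851 promoters in the table. The ETS letters were in 13.6% of the 44 and in 12.0% of all, and the E-box CACGTG, which overlaps the HIF core, was in 15.9% and 6.0%. The 44 promoters were also richer in CpG, with a median of 13.5 CpG against 6 in all promoters. These matches are letters in a window and say nothing of binding.

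The mean of the marker list for HSC, CLP, GMP, pro-B, CD4 T and NK cells was highest in that population, although single markers such as Slamf1, Il7r and Fcgr3 were higher in another. MPP had no list of its own, and the multipotent and lymphoid-primed list was lower in MPP (9.33) than in LMPP (10.7) and CLP (9.80). Replicate arrays correlated at 0.918 to 0.997 over the genes tested. All 4 Ets1 probe sets were lower on both Ets1-- NK arrays than on both Ets1++ NK arrays, for example 6.53 and 7.22 against 8.34 and 8.51 on 1 of them, but signal remained on each. The probe set of highest mean was at 11.28 and 10.85 against 11.34 and 11.45. Its difference of -0.328 was not called (limma, adjusted p = 0.911). The position of those probes against the deleted part was not analysed here, so they do not check the genotype. CLP arrays 1 and 3 stood apart, with an actin 3' over 5' signal of 5.20 and 5.27 log2 units against 3.26 on CLP array 2, and the value was 6.44 to 6.68 on the GMP arrays and 0.98 to 4.07 on all others. The root-mean-square SD of the 32 genes was 0.69 in CLP and 0.13 in Ets1++ NK cells. The comparisons with CLP are therefore also given with CLP array 2 as the only CLP array. HSC array 2 differed from HSC array 1 in the erythroid genes Car1 (11.9 against 8.74) and Klf1 (9.47 against 6.61) and in 11 cycling genes (mean 7.60 against 5.92), and the part of these cells in the HSC values was not tested.

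Over the 9 groups, 28 of the 30 tested genes differed (moderated F test of limma, adjusted p below 0.05), where 78.0% of all genes tested did. The exceptions were Pfkfb2 (adjusted p = 0.0598) and Pfkfb3 (adjusted p = 0.057), which make and remove the phosphofructokinase activator fructose-2,6-bisphosphate. The difference between the highest and the lowest group mean had a median of 2.57 log2 units over the 30 genes, against 1.705 over all genes tested. HSC held the highest mean for 9 of the 32 genes, GMP for 6, and CLP, pro-B and CD4 T cells for 4 each. Those of HSC include the dim Eno2, and those of CLP were Pfkfb2, Pfkfb4, Pdk2 and the dim Slc16a3. No such counts, highest or lowest, were made over all genes tested, so they show nothing particular to these 32 genes. The lowest mean was in CLP for 9 genes and in Ets1++ NK cells for 6. CLP was lowest for 5 with its array 2 alone (Hk1, Pfkp, Aldoa, Pkm and Pdk3), and Ets1++ NK cells for 7.

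**Figure D1:**
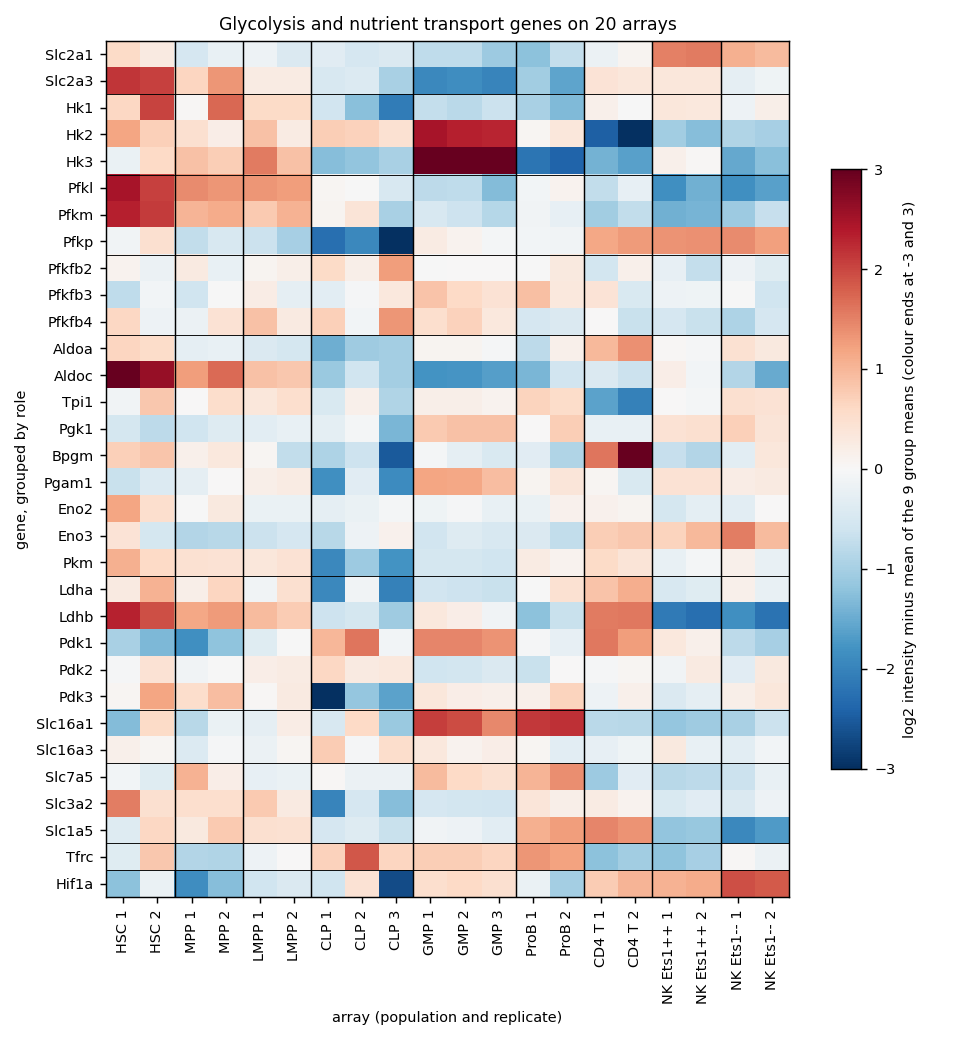
Log2 intensity of the 32 genes on the 20 arrays, each gene shown relative to the mean of its 9 group means (colour from -3 to 3 log2 units), with genes grouped by role and arrays by population. The HSC columns are high for Slc2a3, Pfkl, Pfkm and Aldoc, the GMP columns for Hk2, Hk3 and Slc16a1, and the CLP columns low for Pfkp, Pkm and Pdk3.

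The glucose transporters GLUT1 (Slc2a1) and GLUT3 (Slc2a3) were highest in different populations. Slc2a3 was 10.81 and 10.71 on the HSC arrays, 9.31 and 9.998 in MPP, 8.91 and 8.92 in LMPP, 8.17, 8.25 and 7.69 in CLP, 7.62 and 7.09 in pro-B cells and 6.74, 6.81 and 6.68 in GMP. It was 9.08 and 9.01 in CD4 T cells, 9.01 and 8.997 in Ets1++ NK cells, and 8.39 and 8.54 in Ets1-- NK cells. The arrays of neighbouring groups in this order overlapped only between CD4 T and Ets1++ NK cells. Slc2a1 was highest in NK cells, at 9.48 and 9.55 (Ets1++) and 9.05 and 8.94 (Ets1--), followed by HSC at 8.57 and 8.26. Its remaining populations lay between 6.75 and 8.06, with pro-B cells lowest. Subtracting the log2 value of Slc2a1 from that of Slc2a3 on each array gives a balance whose differences between groups can be compared, although its own level cannot, since 2 probe sets differ in brightness. That balance was 2.35 ± 0.15 (SD, n = 2) in HSC and -0.53 ± 0.19 (n = 2) in Ets1-- NK cells, and it differed over the 9 groups (permutation test of F, 100000 resamples, adjusted p = 0.000108 over 13 isozyme pairs).

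By the chosen probe sets, Hk3 and Hk2 had the widest spans between group means among the tested genes. Hk3 was 11.32, 11.47 and 11.34 in GMP and at most 8.90 on any other array. The next levels were LMPP (8.90 and 8.22), MPP (8.21 and 8.09), HSC (7.15 and 7.94) and Ets1++ NK cells (7.49 and 7.38). Pro-B cells were lowest at 5.16 and 4.95, a span of 6.32 log2 units between group means. On the other Hk3 probe set GMP was also highest (8.97, 8.85 and 8.89), but by less. LMPP was at 7.83 and 8.52 on it, MPP at 8.21 and 7.51 and pro-B cells at 4.77 and 5.73. Hk2, the inducible form bound to mitochondria, was also highest in GMP at 8.82, 8.69 and 8.65. It lay between 6.41 and 7.54 in the HSC, MPP, LMPP, CLP and pro-B arrays, between 5.07 and 5.45 in NK cells, and at 3.90 and 2.95 in CD4 T cells, below every other group. The CD4 T values lie about the array medians (3.78 to 4.04 over the 20 arrays), so the size of any difference from them is uncertain and may be understated. Hk1, the housekeeping form, was highest in HSC, but its arrays there were far apart (9.22 and 10.62), as in MPP (8.64 and 10.31). Hk1 was 8.03, 7.35 and 6.501 in CLP and 7.78 to 7.95 in GMP. The balance of Hk3 over Hk1 ran from 3.51 ± 0.16 (n = 3) in GMP to -2.85 ± 0.03 (n = 2) in CD4 T cells (permutation test, adjusted p = 0.000167). That of Hk2 over Hk1 ran from 0.85 ± 0.13 (n = 3) to -5.24 ± 0.56 (n = 2) in the same groups (permutation test, adjusted p = 0.000108).

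**Figure D2:**
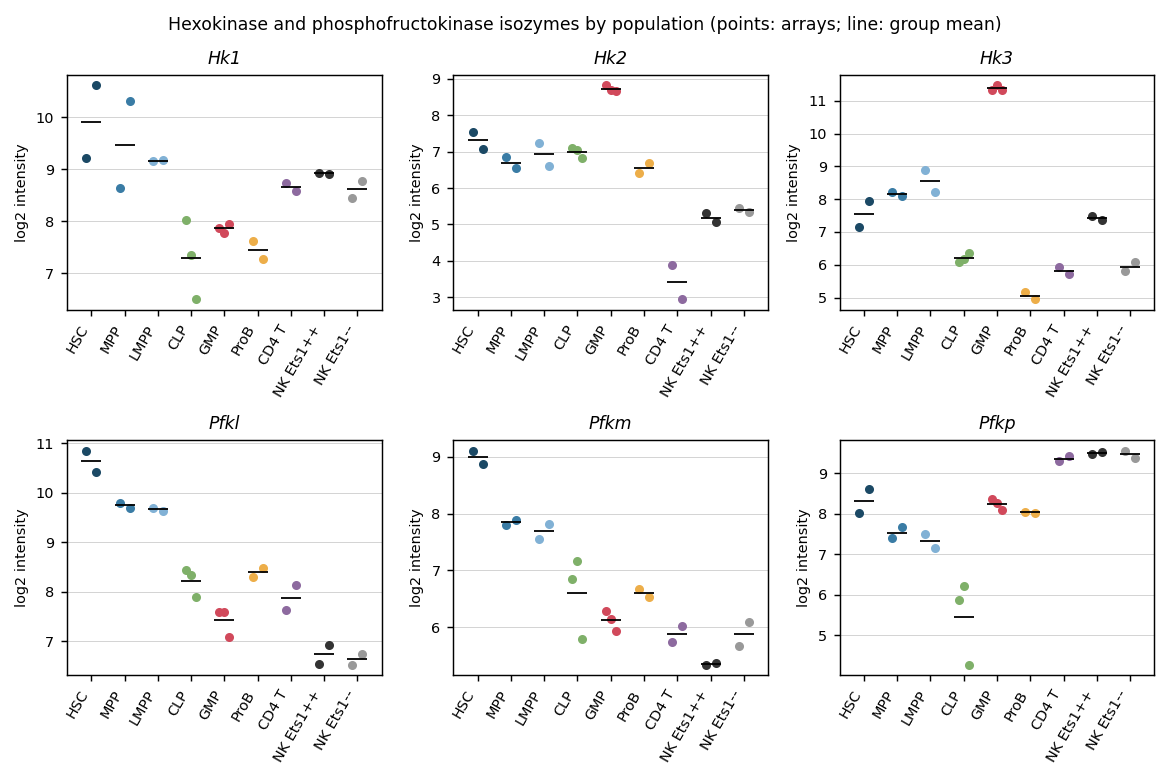
Log2 intensity of 3 hexokinase and 3 phosphofructokinase genes by population; points are arrays and lines are group means. Hk2 and Hk3 are highest in GMP, Pfkl and Pfkm are highest in HSC, and Pfkp is highest in NK and CD4 T cells and lowest in CLP.

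Among the phosphofructokinase genes, Pfkl and Pfkm were highest in HSC, and Pfkp in NK and CD4 T cells. Pfkl, the liver-type subunit, was 10.86 and 10.43 in HSC, 9.63 to 9.80 in MPP and LMPP, 8.44, 8.35 and 7.89 in CLP, 8.30 and 8.49 in pro-B cells, 7.64 and 8.13 in CD4 T cells, 7.60, 7.60 and 7.08 in GMP and 6.53 to 6.93 in NK cells. Pfkm, the muscle-type subunit, followed a like order, from 9.11 and 8.88 in HSC to 5.35 and 5.38 in Ets1++ NK cells. Pfkp, the platelet-type subunit, was also higher in HSC (8.03 and 8.61) than in CLP, but it was highest in the mature NK and T cells. It was 9.48 and 9.51 in Ets1++ NK cells, 9.56 and 9.37 in Ets1-- NK cells and 9.30 and 9.42 in CD4 T cells, and every other array lay at 8.61 or below. CLP was lowest for Pfkp, with 5.88, 6.21 and 4.28. The balance of Pfkp over Pfkl was -2.32 ± 0.71 in HSC, -2.21 ± 0.26 in MPP, -2.35 ± 0.20 in LMPP (n = 2 each) and -2.77 ± 0.76 in CLP (n = 3), where array 2 was at -2.14. It was -0.35 ± 0.15 in pro-B cells (n = 2), 0.81 ± 0.18 in GMP (n = 3), 1.48 ± 0.27 in CD4 T cells, 2.76 ± 0.25 in Ets1++ NK cells and 2.82 ± 0.29 in Ets1-- NK cells (n = 2 each). All 9 arrays of the 4 progenitor groups from HSC to CLP lay at -1.82 or below, and the 11 other arrays at -0.46 or above. The balance differed over the groups with the smallest p that 100000 resamples can give (1e-05, adjusted p = 6.5e-05, and 8.67e-05 with CLP array 2 alone). The balance of Pfkm over Pfkl spanned only 1.24 log2 units (permutation test, adjusted p = 0.0105, and 0.0526 without Ets1-- NK array 2). Of the 3 Pfkl probe sets, 1 did not follow the other two between HSC and CD4 T cells (0.33 against -2.76 and -2.37 for CD4 T minus HSC), and of 3 Pfkp probe sets 1 lay above the array median on 3 arrays only. On the remaining Pfkp probe set HSC (3.265 and 3.459) did not lie above CLP (4.041, 3.567 and 3.325). These values were near or below the array medians.

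**Figure D3:**
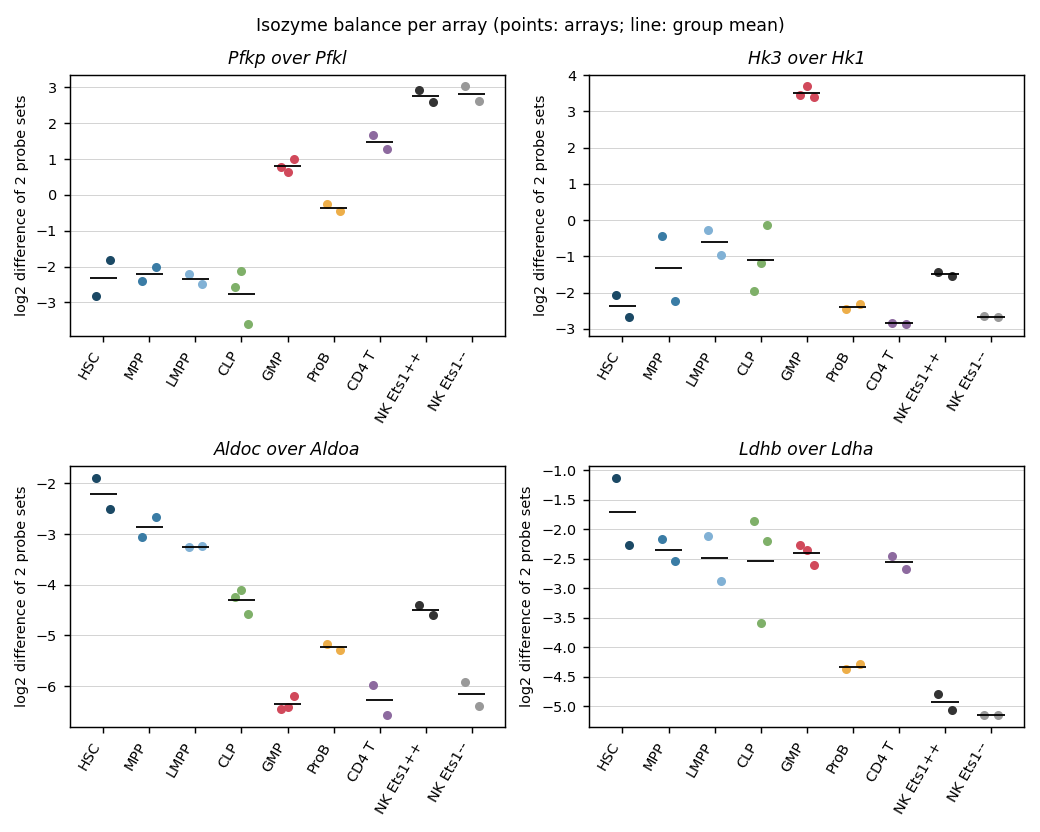
Balance of 4 isozyme pairs per array, as the log2 intensity of the first gene minus that of the second; points are arrays and lines are group means. Pfkp over Pfkl lies at -1.82 or below from HSC to CLP and at -0.46 or above in the other 5 groups, and Ldhb over Ldha is lowest in pro-B and NK cells.

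The Pfkfb enzymes regulate this step. Pfkfb4 differed over the groups (adjusted p = 0.0091, limma), with means from 6.28 in CLP (5.54 on array 2) to 4.90 in Ets1-- NK cells, and neighbouring groups in its order all overlapped. The balances of Pfkfb3 and of Pfkfb4 over Pfkfb2 did not pass (adjusted p = 0.277 for both, permutation test). Pfkfb2 had group means of 4.34 to 5.48 and Pfkfb3 of 6.00 to 7.05.

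In lower glycolysis, aldolase showed a change of isozyme and triose-phosphate isomerase a low level in 1 population. Aldoc, the brain-type aldolase, was 8.63 and 7.91 in HSC, 6.54 and 6.995 in MPP, 6.18 and 6.11 in LMPP and 4.17, 4.70 and 4.27 in CLP, with no overlap between these groups. It was 3.50 to 3.65 in GMP, near the array medians of 3.78 to 4.04. Aldoa, the common form, was highest in CD4 T cells (10.85 and 11.23) and lowest in CLP (8.41, 8.80 and 8.86) on its chosen probe set. Other Aldoa probe sets were highest in HSC, for example at 11.23 and 11.13 against 10.82 and 11.12 in CD4 T cells. Another was highest in GMP (9.04, 9.28 and 9.14), and CLP was lowest on each. The balance of Aldoc over Aldoa was -2.20 ± 0.44 (n = 2) in HSC and -6.35 ± 0.14 (n = 3) in GMP, again with the smallest p that the resamples can give (1e-05, permutation test, adjusted p = 6.5e-05). Tpi1, which interconverts the triose phosphates, was 8.04 and 7.63 in CD4 T cells, while each array outside CD4 T cells lay between 8.74 and 10.46. Pgk1 and Pgam1, which follow it in the pathway, were highest in GMP on their chosen probe sets (12.16, 12.23 and 12.24 for Pgk1, and 10.13, 10.12 and 9.88 for Pgam1). On another bright Pgk1 probe set GMP (10.84, 10.81 and 10.59) overlapped pro-B cells (10.64 and 11.04) and LMPP (10.78 and 10.75). Pkm, pyruvate kinase, was 7.63, 8.48 and 7.78 in CLP and between 8.98 and 10.64 on every other array. Eno3, the muscle-type enolase, was highest in NK cells (6.00 to 6.85) and CD4 T cells (6.07 and 6.14), while the dim Eno2 reached 4.19 on 1 HSC array. The balance of Eno3 over Eno2 differed over the groups (permutation test, adjusted p = 0.000108), but with Eno2 dim it follows mainly Eno3. The probe sets chosen for Aldoa, Tpi1, Pgk1 and Hk3 are of a type whose probes can match related transcripts, and those for Slc2a3 and Bpgm are shared by several transcripts.

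Bpgm, which makes 2,3-bisphosphoglycerate and is best known from red cells, was 8.44 and 9.92 in CD4 T cells, and every other array lay at 7.66 or below. The 2 CD4 T arrays were far apart, and the array with more Bpgm also had more Alas2, an enzyme of heme synthesis in red cell precursors (9.24 against 7.33, where each of the other 18 arrays was at 4.04 or below). Of the 5 tested erythroid markers Alas2 alone was called higher in CD4 T cells than in CLP, and the mean of the erythroid list was 4.46 and 5.03 on the CD4 T arrays against 5.67 and 7.22 in HSC. The part of erythroid RNA in the Bpgm level was not tested.

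The lactate dehydrogenase genes did not share an order. Ldha was 11.28 and 11.52 in CD4 T cells and 10.71 and 11.48 in HSC, and its lowest mean was in CLP, where array 2 (10.32) stood apart from arrays 1 and 3 (8.51 and 8.40) and lay above the GMP arrays (9.78 to 9.86). Ldhb was 9.59 and 9.21 in HSC, 8.82 and 8.86 in CD4 T cells, 8.44 and 8.55 in MPP, 8.21 and 8.04 in LMPP, 7.17 to 7.59 in GMP, 6.21 to 6.74 in CLP and 6.04 and 6.61 in pro-B cells. NK cells were lowest, at 5.15 and 5.01 (Ets1++) and 5.42 and 5.07 (Ets1--), below every array of the other 7 groups. The balance of Ldhb over Ldha was -1.70 ± 0.81 in HSC, -2.56 ± 0.15 in CD4 T cells, -4.33 ± 0.06 in pro-B cells, -4.93 ± 0.19 in Ets1++ NK cells and -5.15 ± 0.004 in Ets1-- NK cells (n = 2 each; permutation test over the 9 groups, adjusted p = 0.00116). Pro-B and NK cells were thus the low groups, with all 6 arrays at -4.28 or below and all 14 others at -3.58 or above.

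Of the pyruvate dehydrogenase kinases, Pdk1 on its chosen probe set was highest in GMP (10.39, 10.38 and 10.28) and CD4 T cells (10.50 and 10.17), which overlapped. It was lowest there in MPP (7.09 and 7.71). On its other probe sets NK cells were lowest and CD4 T cells highest. For example, a bright one was at 7.59 and 7.48 in Ets1++ NK cells, 6.505 and 6.71 in Ets1-- NK cells and 8.08 and 8.76 in MPP. CD4 T cells were at 10.59 and 10.47 on it, above GMP (9.493 to 9.825). The balances below rest on the chosen Pdk1 probe set. Pdk3 was 3.91, 6.11 and 5.66 in CLP and between 6.84 and 8.46 on every other array. Pdk2 had group means between 3.20 and 4.13, close to the array medians. The balance of Pdk3 over Pdk1 ran from 0.60 ± 0.16 (n = 2) in MPP to -4.54 ± 1.41 (n = 3) in CLP (permutation test, adjusted p = 0.000108), and CLP array 2, at -4.42, was also below every array of the other groups. That of Pdk2 over Pdk1 ran from -3.74 ± 0.37 (n = 2) in MPP to -7.15 ± 0.14 (n = 3) in GMP (permutation test, adjusted p = 0.000455), but Pdk2 lay above the array median on 8 arrays only, none of them GMP, so this balance follows mainly Pdk1.

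**Figure D4:**
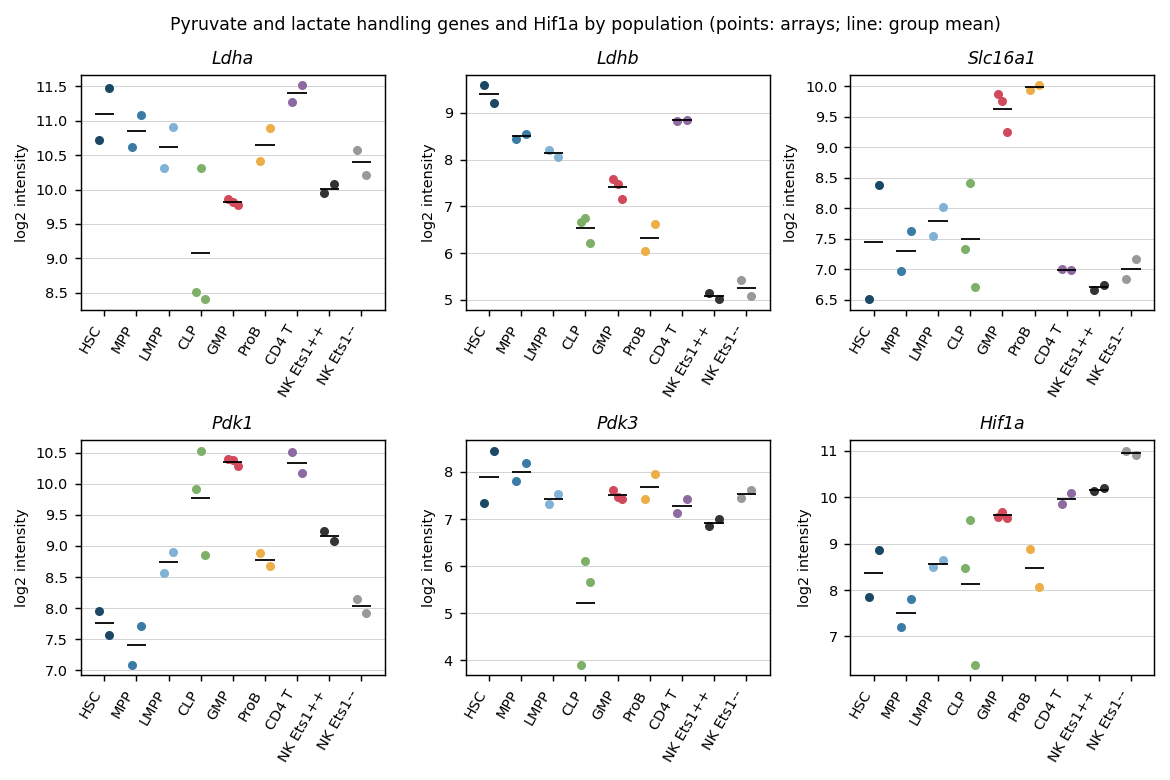
Log2 intensity of Ldha, Ldhb, Slc16a1, Pdk1, Pdk3 and Hif1a by population; points are arrays and lines are group means. Ldhb is lowest in NK cells, Slc16a1 is high in pro-B cells and GMP, and Pdk3 is lowest in CLP. Hif1a is highest in NK cells on the probe set shown, but not on its other probe sets given in the text.

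Slc16a1, the lactate and pyruvate carrier MCT1, was 9.95 and 10.02 in pro-B cells and 9.88, 9.77 and 9.25 in GMP, with no other array above 8.41. Its HSC arrays were 6.51 and 8.39. MCT4 (Slc16a3) lay between 2.85 and 4.02 throughout. The balance of Slc16a3 over Slc16a1 differed over the groups (permutation test, adjusted p = 0.00749) and follows mainly Slc16a1, since Slc16a3 was dim. Slc7a5, the light chain of the LAT1 amino acid transporter, was highest in pro-B cells at 7.01 and 7.38, and lowest in Ets1++ NK cells at 5.17 and 5.21. Slc3a2, its heavy chain, was highest in HSC (10.18 and 9.11) and its mean was lowest in CLP (6.66, 8.13 and 7.36), although CLP array 2 overlapped GMP (8.07 to 8.13). The chains did not share an order. Slc1a5, the glutamine carrier ASCT2, was 8.47 and 8.36 in CD4 T cells, 8.07 and 8.26 in pro-B cells, 5.82 and 5.86 in Ets1++ NK cells and 5.05 and 5.29 in Ets1-- NK cells. The 2 NK groups were its lowest on this probe set, below all arrays of the other groups. On a dimmer Slc1a5 probe set the NK arrays (3.75 to 4.11) overlapped HSC (3.54 and 3.88). Tfrc, the transferrin receptor for iron uptake, was 10.04 and 9.91 in pro-B cells, 9.41, 10.58 and 9.36 in CLP and 9.36 to 9.45 in GMP on its chosen probe set. It was 7.48 and 7.67 there in CD4 T cells, 7.51 and 7.73 in Ets1++ NK cells and 8.74 and 8.54 in Ets1-- NK cells. On a dimmer Tfrc probe set Ets1-- NK cells were highest (5.90 and 6.18), above pro-B cells (5.58 and 5.30). They were highest on a still dimmer one too (4.71 and 4.98, against 4.04 and 3.84 in pro-B cells). Hif1a, the oxygen-regulated subunit of HIF-1, was 11.01 and 10.91 in Ets1-- NK cells, 10.13 and 10.19 in Ets1++ NK cells and 9.85 and 10.09 in CD4 T cells. Its lowest mean was in MPP (7.21 and 7.80), and its CLP arrays spread from 6.39 to 9.51. On another Hif1a probe set CD4 T cells (8.35 and 8.54) overlapped Ets1-- NK cells (8.395 and 8.33). Ets1++ NK cells (7.65 and 7.61) lay below GMP (7.74 to 7.92) on it. On a dimmer one CD4 T cells were at 7.07 and 7.01 and NK cells at 3.115 to 3.641.

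Differences between groups were tested in 10 comparisons with limma, each over all 13479 genes, and comparisons that share a group are not independent. Of the 65 calls in genes with several probe sets over the array median on 2 or more arrays, 56 had all of those probe sets on the same side, and the others were in Pfkl, Pfkp, Pfkfb2, Pgk1, Pdk1, Slc1a5 and Tfrc. With dimmer probe sets included the count was 59 of 73, and calls in Slc2a3, Aldoc and Hif1a also had a probe set on the other side. Between HSC and MPP, 2 of the 30 tested genes fell, where 5.93% of all genes tested were called and 3.99% were lower. They were Slc2a3 (-1.11 ± 0.28, SE, adjusted p = 0.0224) and Aldoc (-1.50 ± 0.32, adjusted p = 0.00744). Pfkm (-1.15, adjusted p = 0.0556) and Tfrc (-1.12, adjusted p = 0.0875) did not pass. The Slc2a3 call was lost without HSC array 1 (-1.06), HSC array 2 (-1.16) or MPP array 1 (-0.77), and its value was -0.66 as the mean of its probe sets. That of Aldoc was lost without HSC array 1 (-1.15) or MPP array 1 (-1.28) and as the mean of its probe sets (-0.52). The number of calls was 1 when either HSC array was left out, 0 without MPP array 1, 3 without MPP array 2, 4 with the mean of the probe sets and 9 with CLP array 2 alone. Over the same comparison 8 of 11 cycling genes rose. Between MPP and LMPP 0 genes were called by limma, where 1.71% of all genes tested were called, 0.942% higher and 0.772% lower. An unadjusted p below 0.05 was found for 4 genes, a threshold whose share over all genes is not given here. Array weights gave 1 call. The differences above 1 log2 unit were Pdk1 (1.33 ± 0.38, adjusted p = 0.111) and Hif1a (1.06 ± 0.61, adjusted p = 0.748).

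From LMPP to CLP, 18 of the 30 genes were called, 16 of them lower, where 26.1% of all genes tested were called, 6.96% higher and 19.2% lower. Hk3 fell by 2.36 ± 0.27 (adjusted p = 7.39e-06), Pkm by 2.00 ± 0.25 (adjusted p = 2.54e-05), Pdk3 by 2.20 ± 0.45 (adjusted p = 0.00191), Aldoc by 1.76 ± 0.29 (adjusted p = 0.00035), Ldhb by 1.59 ± 0.26 (adjusted p = 0.000291) and Pfkl by 1.44 ± 0.27 (adjusted p = 0.00086). These 6 calls held under every alternative run, although Pdk3 was -1.31 with CLP array 2 alone and Aldoc -0.93 as the mean of its probe sets. The other genes that fell were Slc2a3 (-0.88), Hk1 (-1.87), Pfkm (-1.08), Pfkp (-1.86), Aldoa (-0.70), Tpi1 (-0.83), Pgam1 (-1.56), Ldha (-1.54), Slc3a2 (-1.79) and Slc1a5 (-0.98), and Pdk1 (1.03) and Tfrc (1.13) rose. Bpgm (-1.02, adjusted p = 0.117) did not pass. With CLP array 2 alone 10 genes were called: Slc2a3 (-0.66), Pfkm (-0.52), Aldoa (-0.60), Tpi1 (-0.28), Pgam1 (-0.54), Ldha (-0.30), Slc3a2 (-1.04) and Slc1a5 (-0.84) lost the call, and Pfkp (-1.11), Pdk1 (1.80) and Tfrc (1.93) kept it. Slc2a3, Pfkm, Aldoa, Tpi1, Pdk1, Slc1a5 and Tfrc also lost it without either LMPP array, by which 11 and 9 calls were left, at sizes of 0.66 to 1.22, as did Hk1 (-1.87) and Ldha (-1.24) without LMPP array 2. Calls were lost without CLP array 1 in Aldoa (-0.57), Tpi1 (-0.80), Ldha (-1.26) and Pdk1 (0.96), without CLP array 2 in Pdk1 (0.65, with Tfrc still called at 0.74), and without CLP array 3 in Slc2a3 (-0.70), Pfkm (-0.68) and Tpi1 (-0.58). Repeating the quantile normalization ended the calls of Slc2a3 (-0.50), Pfkm (-0.69), Aldoa (-0.33), Tpi1 (-0.51) and Slc1a5 (-0.56), and the mean of the probe sets those of Pfkp (-0.48), Tpi1 (-0.72) and Slc1a5 (-0.24), with Slc2a3 (-0.51) and Tfrc (0.47) smaller. Aldoa and Tpi1 also lost theirs with no filter on dim genes (-0.70 and -0.83). In this comparison 6 of the 11 cycling genes were lower, and the part of cycling cells, and that of the actin 3' over 5' signal, was not tested.

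From LMPP to GMP, 15 genes were called, 6 higher and 9 lower, where 28.9% of all genes tested were called and 16.0% were higher. Hk3 rose by 2.82 ± 0.27 (adjusted p = 2.75e-07), Hk2 by 1.80 ± 0.29 (adjusted p = 0.000112) and Pdk1 by 1.61 ± 0.35 (adjusted p = 0.00172). Aldoc fell by 2.59 ± 0.29 (adjusted p = 2.41e-06), Pfkl by 2.24 ± 0.27 (adjusted p = 4.49e-06), Slc2a3 by 2.17 ± 0.26 (adjusted p = 3.96e-06) and Pfkm by 1.56 ± 0.31 (adjusted p = 0.000944). These 7 calls held under every alternative, but the means of the probe sets were smaller for Hk3 (1.77), Pdk1 (0.70), Aldoc (-1.37) and Slc2a3 (-1.17). Slc16a1 (1.84), Pgk1 (1.12) and Slc7a5 (0.89) rose, and Hk1 (-1.30), Slc3a2 (-1.08), Pkm (-0.94), Pdk2 (-0.75) and Ldhb (-0.72) fell, at adjusted p of 0.0053 to 0.0429. Those 8 lost the call without LMPP array 1 (7 calls were left), at sizes of 0.64 to 1.60, and 5 of them (Hk1, Pkm, Ldhb, Pdk2 and Slc7a5) without LMPP array 2, at 0.73 to 1.29. Without 1 of the GMP arrays Hk1 (-1.26 to -1.34), Ldhb (-0.60 to -0.81) and Slc3a2 (-1.06 to -1.10) lost it whichever was left out, and Pdk2 (-0.71 and -0.74) and Slc7a5 (0.75 and 0.92) without GMP array 1 or 2. As the mean of the probe sets Ldhb (-0.77) lost its call and Slc16a1 (1.07) and Pgk1 (0.74) were smaller, Ldhb (-0.72) lost it with no filter on dim genes, and Slc7a5 (0.82) with a repeated quantile normalization. Hif1a (1.04, adjusted p = 0.181) did not pass. Of the 7 tested neutrophil genes 5 were higher in GMP, such as S100a8 at 10.6 to 10.8 against 3.29 and 3.73 in LMPP, and actin 3' over 5' signal was higher as well; the part of either in the result was not tested.

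From CLP to pro-B cells, 12 genes rose and 5 fell, where 35.1% of all genes tested were called, 21.1% higher and 14.0% lower. Pkm rose by 1.78 ± 0.25 (adjusted p = 3.93e-05), Pfkp by 2.59 ± 0.39 (adjusted p = 6.93e-05), Slc1a5 by 1.69 ± 0.27 (adjusted p = 0.000137), Pdk3 by 2.46 ± 0.45 (adjusted p = 0.000447), Slc16a1 by 2.49 ± 0.46 (adjusted p = 0.000467) and Slc7a5 by 1.32 ± 0.29 (adjusted p = 0.0018), while Hk3 fell by 1.15 ± 0.27 (adjusted p = 0.00294). These 7 held under every alternative. With CLP array 2 alone Pdk3 was 1.58 and Slc16a1 1.57, and as the mean of the probe sets Pfkp was 0.91, Slc1a5 0.70, Slc16a1 1.41 and Hk3 -0.64. However, another probe set of Slc1a5 (-0.285) and another of Pfkp (-0.062) went the other way. The other rises were in Pgam1 (1.58), Ldha (1.58), Slc3a2 (1.53), Tpi1 (1.01), Pgk1 (0.94) and Aldoa (0.87), and the other falls in Pfkfb4 (-1.14), Pdk1 (-0.99), Pdk2 (-0.73) and Slc2a3 (-0.69). With CLP array 2 alone 9 calls were left: Pgam1 (0.56), Ldha (0.33), Slc3a2 (0.78), Tpi1 (0.46), Pgk1 (0.43), Aldoa (0.76), Pfkfb4 (-0.40) and Pdk2 (-0.60) lost theirs, and Pdk1 (-1.75) kept it. Without pro-B array 2, 10 calls were left, and Slc2a3 (-0.42), Pfkfb4 (-1.18), Aldoa (0.40), Tpi1 (1.07), Pgk1 (0.58), Ldha (1.34) and Pdk1 (-0.89) lost theirs. Without pro-B array 1 Pfkfb4 (-1.10), Tpi1 (0.96), Pdk1 (-1.09) and Pdk2 (-0.39) did, with Aldoa still called at 1.34. Calls were lost without CLP array 1 in Slc2a3 (-0.62), Pdk1 (-0.91) and Pdk2 (-0.62), without CLP array 2 in Slc2a3 (-0.58) and Pdk1 (-0.61), and without CLP array 3 in Pfkfb4 (-0.80), Tpi1 (0.76) and Pgk1 (0.55). The mean of its probe sets ended the call of Slc2a3 (-0.25), and a repeated quantile normalization those of Aldoa (0.49) and Pdk2 (-0.56), with Slc2a3 called at -1.03. Array weights ended those of Slc2a3 (-0.73) and Pdk2 (-0.83), and no filter on dim genes that of Slc2a3 (-0.69). In this comparison 7 of the 11 cycling genes rose, and their part was not tested.

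Between CLP and CD4 T cells, 14 genes were higher and 5 lower in the T cells, where 48.7% of all genes tested were called, 29.0% higher and 19.7% lower. Pfkp rose by 3.90 ± 0.39 (adjusted p = 2.13e-07), Bpgm by 3.70 ± 0.47 (adjusted p = 4.57e-06), Aldoa by 2.35 ± 0.25 (adjusted p = 5.15e-07), Ldha by 2.32 ± 0.41 (adjusted p = 0.000174) and Ldhb by 2.30 ± 0.26 (adjusted p = 9.67e-07). Hk2 fell by 3.56 ± 0.29 (adjusted p = 1.28e-08), Tfrc by 2.21 ± 0.34 (adjusted p = 3.69e-05) and Tpi1 by 1.40 ± 0.30 (adjusted p = 0.000863). These 8, with Pkm (2.09), Pdk3 (2.04) and Slc1a5 (1.94), held under every alternative. With CLP array 2 alone Ldha was 1.08 and Pdk3 1.16, and as the mean of the probe sets Pfkp was 2.00, Slc1a5 1.01 and Tfrc -0.72. The rest, Hif1a (1.84), Slc3a2 (1.44), Hk1 (1.37), Pgam1 (1.15), Eno3 (1.06), Slc2a3 (1.00), Pfkfb4 (-0.98) and Pfkfb2 (-0.87), lost the call under some alternative. With CLP array 2 alone they did so at 0.46, 0.69, 1.31, 0.13, 0.93, -0.25 and -0.38 in that order, leaving out Slc2a3, which lost it with a repeated quantile normalization (0.43). Calls were lost without CLP array 1 in Pfkfb4 (-0.95) and Pgam1 (0.90), without CLP array 3 in Hk1 (0.98), Pfkfb2 (-0.58) and Pfkfb4 (-0.65, with Hif1a called at 0.98), without CD4 T array 1 in Hk1 (1.29), Pfkfb2 (-0.53) and Pgam1 (0.89), and without CD4 T array 2 in Hk1 (1.45), Pfkfb4 (-0.64) and Hif1a (1.72). The mean of the probe sets ended the calls of Hk1 (1.21) and Pfkfb2 (-0.26), with Slc2a3 smaller (0.47), and a repeated quantile normalization those of Hk1 (0.77) and Pgam1 (0.56), with Slc3a2 smaller (0.84). Cycling genes were lower in CD4 T cells for 8 of 11, and their part was not tested.

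Pro-B cells and CD4 T cells differed in 13 genes, 5 higher and 8 lower in pro-B cells, where 28.8% of all genes tested were called, 11.8% higher and 17.0% lower. Hk2 was higher in pro-B cells by 3.13 ± 0.31 (adjusted p = 2.37e-07), Slc16a1 by 2.99 ± 0.51 (adjusted p = 0.000134), Tpi1 by 2.42 ± 0.33 (adjusted p = 1.06e-05), Tfrc by 2.40 ± 0.37 (adjusted p = 4.77e-05) and Slc7a5 by 1.92 ± 0.32 (adjusted p = 0.000101). Lower were Bpgm (-2.96 ± 0.52, adjusted p = 0.000176), Ldhb (-2.51 ± 0.28, adjusted p = 1.06e-06), Slc2a3 (-1.69), Pdk1 (-1.56), Aldoa (-1.48), Eno3 (-1.36), Pfkp (-1.32) and Slc2a1 (-0.93). The calls held under every alternative but for Pfkp, lost whichever of these 4 arrays was left out (-1.26 to -1.37) and with a repeated quantile normalization (-1.09), and Slc2a1, lost without pro-B array 1 (-0.67) or CD4 T array 2 (-0.80) and with that normalization (-0.73). The mean of the probe sets was smaller for Slc16a1 (1.88), Tfrc (0.86), Slc2a3 (-0.72) and Aldoa (-0.89). Hk1 (-1.22, adjusted p = 0.0747) and Hif1a (-1.50, adjusted p = 0.0758) did not pass. All 11 cycling genes were higher in pro-B cells, and their part was not tested.

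Between HSC and CD4 T cells, 11 genes were called, 8 of them lower in the T cells, where 30.7% of all genes tested were called, 14.0% higher and 16.7% lower. Hk2 was lower by a difference of -3.88 ± 0.31 (adjusted p = 1.26e-08), Aldoc by -3.51 ± 0.32 (adjusted p = 6.42e-08), Pfkm by -3.11 ± 0.34 (adjusted p = 7.88e-07), Pfkl by -2.76 ± 0.29 (adjusted p = 4.21e-07) and Tpi1 by -2.17 ± 0.33 (adjusted p = 3.64e-05). Hk3 (-1.73) and Slc2a3 (-1.72) were lower and Pdk1 (2.58) higher, and these 8 calls held under every alternative, with smaller means of the probe sets for Aldoc (-1.85), Pfkl (-1.60) and Slc2a3 (-0.96). However, another Pfkl probe set went the other way (0.331). Bpgm (1.58) lost its call without HSC array 1 (1.52), HSC array 2 (1.64) or CD4 T array 2 (0.84) and with a repeated quantile normalization (1.51). Slc1a5 (1.30) lost it without HSC array 1 (0.79), and Tfrc (-1.36) without HSC array 2 (-0.79), without CD4 T array 1 (-1.27) and as the mean of its probe sets (-0.23). Hk1 (-1.25, adjusted p = 0.0638), Pfkp (1.04, adjusted p = 0.0726) and Hif1a (1.61, adjusted p = 0.0539) did not pass. Of the 11 cycling genes 6 were lower in CD4 T cells, and their part was not tested.

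Ets1++ NK cells differed from CD4 T cells in 11 genes, 4 higher and 7 lower, where 24.5% of all genes tested were called, 14.3% higher and 10.2% lower. Ldhb was lower by a difference of -3.76 ± 0.28 (13.5-fold, adjusted p = 7.67e-09), and its 4 probe sets gave -3.76 to -5.72. Bpgm (-3.13 ± 0.52, adjusted p = 0.000138) and Slc1a5 (-2.57 ± 0.30, adjusted p = 2.3e-06) were lower too. Tpi1 was higher by 1.78 ± 0.33 (adjusted p = 0.00042), Hk2 by 1.76 ± 0.31 (adjusted p = 0.000315), Hk3 by 1.62 ± 0.29 (adjusted p = 0.000383) and Slc2a1 by 1.59 ± 0.26 (adjusted p = 0.00014). These 7 held under every alternative, with Slc1a5 at -1.69 and Hk3 at 1.03 as the mean of the probe sets. The other four were Ldha (-1.39), Pdk1 (-1.18), Aldoa (-1.18) and Pfkl (-1.15). Without CD4 T array 2, 7 calls were left. Ldha (-1.27 to -1.51) and Pdk1 (-1.01 to -1.35) lost theirs whichever of the 4 arrays was left out, Aldoa without CD4 T array 2 (-0.99) and Pfkl without CD4 T array 2 (-0.90) or Ets1++ NK array 1 (-0.95), and Pdk1 was -2.86 as the mean of its probe sets. Beside Hk3, all 7 tested neutrophil genes were higher on the NK arrays, with list means of 8.94 and 9.04 against 3.99 and 4.16 in CD4 T cells, and 10 of 11 cycling genes were higher. The part of neutrophil RNA and of cycling cells was not tested.

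Between the NK genotypes 2 genes were called, both lower in Ets1-- cells, where 3.81% of all genes tested were called and 2.23% were lower. Of the 30 genes, 5 had an unadjusted p below 0.05 (limma). The share of all genes at that threshold is not given here, so the 5 cannot be set against the 3.81%. Hk3, an isozyme known from myeloid cells, was 5.80 and 6.09 in Ets1-- against 7.49 and 7.38 in Ets1++ NK cells, a difference of -1.49 ± 0.29 (adjusted p = 0.00492). Aldoc was 4.41 and 3.78 against 5.50 and 5.22, a difference of -1.26 ± 0.32 (adjusted p = 0.0298). The value of 3.78, on Ets1-- array 2, lay below the median of that array (3.82), so the size of this difference is uncertain. That array also had an actin 3' over 5' signal of 4.07, against 2.76 to 2.90 on the other NK arrays. The part of this signal in the differences was not tested. The Hk3 call was lost without Ets1++ array 1 (-1.43) or Ets1-- array 1 (-1.35) and was -0.98 as the mean of its probe sets. The Aldoc call was lost without Ets1++ array 1 (-1.12), Ets1++ array 2 (-1.40) or Ets1-- array 2 (-0.95) and with a repeated quantile normalization (-1.10), and was -0.82 as the mean of its probe sets. No call was left without Ets1++ array 1, and 1 without any other of the 4 arrays. Not called were Pdk1 (-1.12 ± 0.38, adjusted p = 0.136), with 9.23 and 9.08 in Ets1++ and 8.15 and 7.93 in Ets1-- cells, and Tfrc (1.02 ± 0.37, adjusted p = 0.172). A fit on the 4 NK arrays alone, with 2 residual degrees of freedom, called 7 genes, adding Pdk1, Tfrc, Hif1a (0.80), Tpi1 (0.48) and Slc2a1 (-0.53). The share of all genes called in that fit is not given here, so its count cannot be set against the 3.81% above. Neutrophil genes moved beside Hk3: 3 of the 7 tested were lower in Ets1-- cells, S100a8 was 10.9 and 10.2 against 12.1 and 12.0, and the list mean was 8.13 and 7.34 against 8.94 and 9.04, while 5 of 7 GMP markers were lower as well. Their part in the Hk3 difference was not tested.

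**Figure D5:**
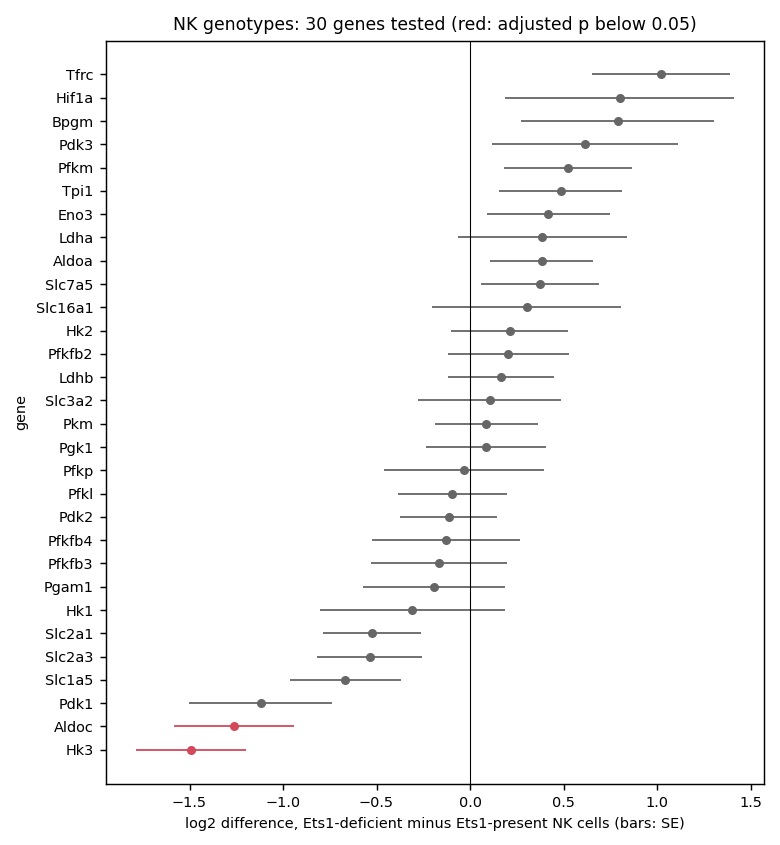
Difference of each of the 30 tested genes between NK genotypes (Ets1-- minus Ets1++, log2 units), with the standard error of the limma model as bars (n = 2 per genotype). Hk3 (-1.49) and Aldoc (-1.26) are the genes called, and Tfrc (1.02) and Hif1a (0.80) lie to the right.

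A second list held other genes of glucose, pyruvate, lactate, pentose phosphate and amino acid handling, with regulators and targets of HIF and MYC such as Arnt, Vhl, Mxi1 and Ddit4: 52 of its 59 genes were measured and 48 tested. Shares called were near those of all genes tested in several comparisons: 33.3% against 26.1% from LMPP to CLP, 29.2% against 28.9% from LMPP to GMP, 37.5% against 35.1% from CLP to pro-B cells, 50.0% against 48.7% from CLP to CD4 T cells, 22.9% against 28.8% between pro-B and CD4 T cells, 29.2% against 30.7% from HSC to CD4 T cells and 25.0% against 24.5% between NK and CD4 T cells. Called were 2 of 48 from HSC to MPP, both lower, 0 from MPP to LMPP (4 at an unadjusted p below 0.05), 16 from LMPP to CLP (5 higher, 11 lower), 14 from LMPP to GMP (12 higher, 2 lower), 18 from CLP to pro-B cells (9 each way) and 24 from CLP to CD4 T cells (12 each way). Pro-B cells had 8 higher and 3 lower than CD4 T cells, CD4 T cells 3 higher and 11 lower than HSC, and Ets1++ NK cells 8 higher and 4 lower than CD4 T cells. Between the NK genotypes limma called 0, with 8 at an unadjusted p below 0.05. The share of all genes at an unadjusted p below 0.05 is not given here for either comparison. The median difference from LMPP to CLP was -0.23 for this list, -0.85 for the 30 glycolysis and nutrient transport genes and -0.08 for all genes tested. Mpc1, a subunit of the mitochondrial pyruvate carrier, was lower in CLP than in LMPP (-3.24 ± 0.54, adjusted p = 0.000407) and higher in CD4 T cells than in CLP (3.02 ± 0.54, adjusted p = 0.000189). Taldo1, a pentose phosphate enzyme, also fell from LMPP to CLP (-1.99), while the glutamine transporter Slc38a1 (1.36) and Txnip (1.26), which restrains glucose uptake, rose. Txnip fell from HSC to MPP (-2.17 ± 0.30, adjusted p = 0.000191), as did the transcription factor gene Mycn (-2.28). In GMP the pentose phosphate enzyme Pgd (2.83) and Tigar (3.06), a fructose-2,6-bisphosphatase, were higher than in LMPP, and Mycn (-2.13) and Slc1a4 (-0.88) lower. Pro-B cells had more Dlat (2.11) and Mpc1 (1.98) and less Mycn (-2.54) and Myc (-1.32) than CLP. CD4 T cells had more Ddit4 (2.82) and less Mycn (-3.21) and Car9 (-2.05) than CLP, and more Ddit4 (2.13) and Tigar (1.96) and less Mycn (-5.50) and Fbp1 (-3.22) than HSC. Fbp1, an enzyme of gluconeogenesis, and Vegfa were higher in pro-B than in CD4 T cells (2.87 and 2.01), and Ddit4 (-3.22) and Txnip (-2.52) lower. Ets1++ NK cells had more Slc16a7 (2.00) and Pgd (1.25) and less Mxi1 (-2.11) and Pdhx (-1.53) than CD4 T cells.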

How the data were processed

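Arrays were hybridised with RNA amplified in 2 rounds, per the labels' protocols. The deposited table holds 1 linear intensity per probe set for 45101 probe sets, made with RMA (background correction, normalization and probe summary) per the submitters' processing notes, in a version that the sources used here do not name. The design had assumed log2 values, so log2 was taken first. Symbols came from the platform table, where 34958 probe sets had 1 symbol, updated through RefSeq (GRCm38.p6).

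One limma 3.58.1 fit (R 4.3.3; lmFit, eBayes with an intensity trend) took in all 20 arrays in 9 groups (residual degrees of freedom: 11). Benjamini-Hochberg adjustment ran over 13479 genes, and a call is an adjusted p below 0.05. Alternatives were a filter, normalization, probe set rule, trend, array weights, replicate block or array changed one at a time. Isozyme balances were tested by permutation in Python 3.11.15. The method was tested on simulated data. Precision is limited by having 2 or 3 arrays in a group. The main fit did not pair arrays by replicate number. Deviations of same-numbered arrays from their group means correlated at -0.233 to 0.396, above 0.1 in 11 of 73 pairs. The highest were HSC with CLP (0.396, array 2) and HSC with MPP (0.368). Between groups of 2 arrays both numbers give the same value by construction. Whether arrays of the same number share a source was not tested.

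The genes and lists were chosen with earlier results of these data known. The rule for naming took every called gene of the 32, uncalled ones that differed by at least 1 log2 unit, up to 2 pathway genes per direction and comparison, and markers that define a population.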

Additional observations from a re-analysis of the deposited data

How the results depend on the processing

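No direction reversed among the 108 called differences of single genes, and 51 of them lost the call under some alternative, 16 only when 1 array was left out. CLP array 2 as the only CLP array ended 23 of these calls, a repeated quantile normalization 15, averaging the probe sets 9, the replicate block 6 (Aldoa and Tpi1 in CLP minus LMPP, Hk1 and Ldhb in GMP minus LMPP, Pfkfb2 and Pfkfb4 in CD4 T minus CLP), no filter on dim genes 4, array weights 2, and a stricter filter or no intensity trend 0. With CLP array 2 alone, counts were 9 for MPP minus HSC, 1 for LMPP minus MPP, 10 for CLP minus LMPP, 9 for pro-B minus CLP and 4 between the NK genotypes; this fit leaves out 2 arrays, and the cause was not tested. The mean of the probe sets gave 4 for MPP minus HSC and 4 between the NK genotypes. The replicate block gave 4 for MPP minus HSC and 1 for LMPP minus MPP, and did not move the count of any other comparison past 1.5 times. Array weights gave 1 for LMPP minus MPP, 24 for GMP minus LMPP and 5 between the NK genotypes, where a repeated quantile normalization gave 1 and the NK arrays alone 7. Shares of all genes tested are given for the main fit only, so the counts of the alternatives have none beside them. Leaving out 1 array gave 0 to 3 calls for MPP minus HSC, 0 to 0 for LMPP minus MPP, 9 to 19 for CLP minus LMPP, 7 to 12 for GMP minus LMPP, 10 to 16 for pro-B minus CLP, 16 to 20 for CD4 T minus CLP, 11 to 12 for pro-B minus CD4 T, 10 to 11 for CD4 T minus HSC, 7 to 9 for Ets1++ NK minus CD4 T, 0 to 1 between the NK genotypes and 27 to 30 over the 9 groups; a group left with 1 array is assumed to vary like the others. The adjusted p of the balance of Pfkm over Pfkl was 0.00168 to 0.0526 in the same way.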
